A study of Mus musculus with 16 samples.

Results

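NF-kB is a small family of transcription factors, and the genes described here are its 5 subunits (Nfkb1, Nfkb2, Rel, Rela and Relb), 3 inhibitors that hold it in the cytoplasm (Nfkbia, Nfkbib and Nfkbie) and 2 related proteins that act in the nucleus (Nfkbiz and Bcl3). They were chosen by name, as every probe whose gene name in the array files is one of these 10, which gave 15 of the 55681 probes and 10 of the 34779 names on the array. A total of 9 of the 10 were tested, among 15877 genes, and each of these 9 was well above background on all 16 arrays. Rel was not tested, because its 1 probe was too dim.

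The cells were RAW 264.7, a macrophage-like line derived from a mouse tumour, so that all arrays come from one transformed line, and mRNA was measured on 1-colour Agilent arrays. Cells received 20 µM cordycepin, an adenosine analogue that inhibits polyadenylation, or its vehicle DMSO for 60 min. LPS, the bacterial lipopolysaccharide that activates Toll-like receptor 4, was then added at 1 µg/ml for 60 min, or was not added. The 4 groups are DMSO, cordycepin, LPS+DMSO and LPS+cordycepin, each with 120 min in drug or vehicle and with 4 biological replicates. All groups carried the same low-serum medium and no genetic change. A replicate number marks a collection day, and replicates 1 and 2 of every group were on slide 1 and replicates 3 and 4 on slide 2.

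In resting cells NF-kB dimers are held in the cytoplasm by IkB proteins, and a Toll-like receptor signal leads to phosphorylation of the IkB by the IkB kinases and to its destruction by the proteasome. The freed dimers enter the nucleus and bind kB sites, and their targets include genes of the system itself, such as the inhibitor IkB alpha encoded by Nfkbia, whose resynthesis ends the signal. In macrophages this circuit drives the early transcription of cytokines after contact with bacteria.

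The stretches upstream of the start of transcription are shown only for members with a match to the kB consensus there (Nfkbia, Nfkb2, Nfkbie and Rel). Such kB sites are the elements that NF-kB itself can bind. Members without a match there, Rela among them, are not shown. They are from RefSeq (GRCm38.p6) and read 5′ to 3′ on the strand of the gene, and capitals mark matches to the kB consensus on either strand. Nfkbia is shown for all 250 bases before its start, chr12:55492648-55492897 on the minus strand. Nfkb2 is shown for the last 64 bases before the first of its 3 starts, chr19:46304673-46304736 on the plus strand. Nfkbie is shown at chr17:45555569-45555628 on the plus strand and Rel at chr11:23771026-23771086 on the minus strand.
Nfkbia: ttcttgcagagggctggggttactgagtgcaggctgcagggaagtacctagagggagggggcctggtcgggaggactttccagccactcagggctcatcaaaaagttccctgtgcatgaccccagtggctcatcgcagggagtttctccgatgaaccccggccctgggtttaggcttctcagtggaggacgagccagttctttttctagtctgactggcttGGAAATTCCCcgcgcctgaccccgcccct
Nfkb2: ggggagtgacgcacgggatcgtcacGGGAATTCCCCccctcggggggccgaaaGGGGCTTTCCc
Nfkbie: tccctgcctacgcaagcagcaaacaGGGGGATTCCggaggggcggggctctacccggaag
Rel: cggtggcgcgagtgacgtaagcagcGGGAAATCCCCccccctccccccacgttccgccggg

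Windows from 250 bases before to 50 bases after the start were given for 7 of the 10 members, and 5 of the 7 (Bcl3, Nfkb2, Nfkbia, Nfkbie and Rel) held a match to the kB consensus on either strand. The match of Bcl3 lay after its start. Over all 27025 genes with a window, 9.55% held one. A looser pattern, which fixes only the outer G and C bases of the site and covers every match to the consensus, was found in 6 of the 7 and in 53.5% of all genes. Nfkbib held neither and Rela only the looser one, and Nfkb1, Relb and Nfkbiz had no window.

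The probes that read Nfkbia, Nfkb2 and Nfkbiz are shown, and the results below rest on 1 probe for each of these genes. The array files place them, on mm9, at chr12:56590945-56591440 on the minus strand for Nfkbia, chr19:46386146-46386285 on the plus strand for Nfkb2 and chr16:55817859-55817918 on the minus strand for Nfkbiz. Rela, Nfkbie, Bcl3 and Rel were also read by 1 probe each, which is not shown. Each of those probes, and the dimmer probe of Nfkb1, holds the poly(A) signal AATAAA, and the probes shown do not. Whether this affected the readings with cordycepin was not tested.
Nfkbia probe: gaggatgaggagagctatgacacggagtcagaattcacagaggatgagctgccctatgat
Nfkb2 probe: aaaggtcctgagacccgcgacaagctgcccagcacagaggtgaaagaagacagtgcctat
Nfkbiz probe: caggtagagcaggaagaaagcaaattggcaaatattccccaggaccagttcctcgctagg

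Levels are log2 intensities, scaled so that the arrays share one 75th percentile, and a difference of 1 is 2-fold. Fewer cells and less RNA per cell cannot be told apart on such a scale. Between 21999 and 30362 of the 59305 spots were well above background per array (37.1% to 51.2%), with 21999 to 26055 on slide 1 and 27151 to 30362 on slide 2, and no spot was saturated. Of 10 macrophage markers, 9 were well above background on all arrays. None of 4 fibroblast, 3 epithelial and 3 B cell markers was, whereas Cd3e and Cd4 of 3 T cell markers and Kdr of 3 endothelial markers were.

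LPS raised all 9 tested members in DMSO-treated cells at an adjusted p under 0.05 in limma, the threshold for a call throughout, where 5.14% of all genes tested were called higher. A total of 6 rose at least 2-fold, against 2.09% of all genes. The median change of the 9 was 1.40 and that of all genes tested -0.04. For each of the 9 the 4 LPS+DMSO arrays lay above the 4 DMSO arrays. The share of all genes tested whose arrays separate in this way was not computed, so this count is a description only. In cordycepin-treated cells LPS raised 8 of the 9, where 3.54% of all genes were called higher, with a median of 0.97 against -0.05. Scaling to spiked-in control RNAs left 5 members called in DMSO and 2 in cordycepin, and the share of all genes called under it was not computed. Under that scaling the member median was 1.29 in DMSO and 0.67 in cordycepin, against -0.147 and -0.347 for all genes.

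**Figure D1:**
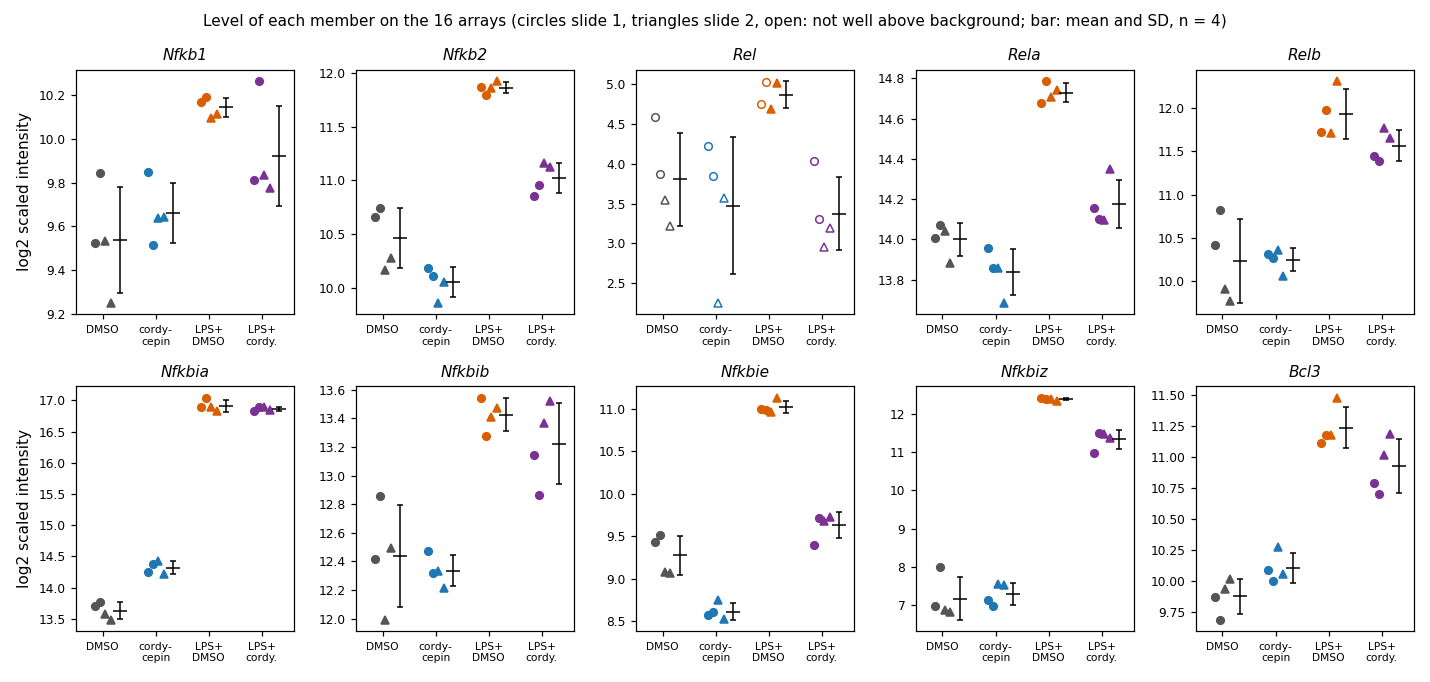
Log2 scaled intensity (vertical axis, a scale of its own in each panel) of the 10 members in the 4 groups, by array, for the brightest probe, with circles for slide 1, triangles for slide 2, open symbols where the probe was not well above background, and the mean and SD of 4 arrays as a bar. The LPS+DMSO arrays lie above the DMSO arrays for all 10, a separation whose share over all genes was not computed. For Rel only 2 of 16 symbols are filled.

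Among the subunits, Rela encodes p65, which carries the transactivation domain of the common p50 and p65 dimer. It read 14.01, 14.07, 14.04 and 13.88 on the DMSO arrays and 14.68, 14.79, 14.71 and 14.74 on the LPS+DMSO arrays. With cordycepin it read 13.96, 13.86, 13.86 and 13.68 without LPS and 14.16, 14.10, 14.10 and 14.35 with LPS. The LPS+DMSO arrays were thus the highest, clear of the LPS+cordycepin arrays, and the DMSO and cordycepin arrays overlapped. LPS raised Rela by 0.73 (SE 0.0837, adjusted p = 1.65e-05, 1.66-fold), and with LPS present it was 0.55 lower in cordycepin than in DMSO (log2 change -0.55, adjusted p = 0.000149). In cordycepin-treated cells LPS raised it by 0.34 (adjusted p = 0.019), a call that was lost without any of the 4 replicate numbers in turn (adjusted p = 0.0765, 0.052, 0.124 and 0.193 without replicates 1, 2, 3 and 4). It was also lost without cordycepin replicate 4 (adjusted p = 0.0757) or LPS+cordycepin replicate 4 (adjusted p = 0.0594). With no filter on dim probes, only the groups compared or the methods' t-test, the adjusted p of Rela was 0.138, 0.0684 and 0.0734.

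Nfkb2 encodes p100, which is processed to p52 and which also acts as an IkB. It read 10.66, 10.74, 10.17 and 10.28 on the DMSO arrays and 11.87, 11.79, 11.86 and 11.93 on the LPS+DMSO arrays. The cordycepin arrays read 10.19, 10.11, 9.86 and 10.06 and the LPS+cordycepin arrays 10.85, 10.96, 11.16 and 11.12. The arrays with LPS were higher than those without, and with LPS the 2 treatments did not overlap. The rise with LPS was 1.40 (SE 0.125, adjusted p = 1.16e-06, 2.64-fold) in DMSO and 0.97 (adjusted p = 8.28e-05) in cordycepin. In the presence of LPS, Nfkb2 fell by 0.84 with cordycepin (adjusted p = 0.000122), and the mean differences were -0.93 on slide 1 and -0.76 on slide 2. Without LPS the difference was -0.41 (adjusted p = 0.0358), the DMSO and cordycepin arrays overlapped, and the call was lost without any of the 4 replicate numbers in turn (adjusted p = 0.136, 0.17, 0.0657 and 0.0749). Leaving out DMSO replicate 1 or 2 gave adjusted p = 0.106 and 0.0964, and leaving out cordycepin replicate 2, 3 or 4 gave 0.0611, 0.116 and 0.0751.

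Nfkb1 encodes p105, the precursor of p50. It averaged 9.54 ± 0.24 on the DMSO arrays and 9.66 ± 0.14 on the cordycepin arrays, and with LPS 10.15 ± 0.05 in DMSO-treated and 9.92 ± 0.23 in cordycepin-treated cells (SD, n = 4). Its rise with LPS in DMSO was 0.61 (SE 0.13, adjusted p = 0.00412) and the adjusted p was 0.0517 without replicate 3. In cordycepin the LPS change was 0.26 (95% interval -0.01 to 0.54, adjusted p = 0.315). With LPS the difference between cordycepin and DMSO was -0.22 (adjusted p = 0.302). LPS+cordycepin replicate 2 read 10.27 and the other 3 arrays of that group 9.78 to 9.83. Without replicate 2 of all groups the difference was -0.32 (adjusted p = 0.0447).

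Relb encodes the partner of p52. It read 10.42, 10.82, 9.90 and 9.77 on the DMSO arrays and 11.72, 11.98, 11.71 and 12.32 on the LPS+DMSO arrays. LPS raised it by 1.71 in DMSO (SE 0.201, adjusted p = 2.13e-05) and by 1.32 in cordycepin (adjusted p = 0.000394). The first of these was 1.23 on slide 1 and 2.18 on slide 2, where the DMSO arrays were lower. Cordycepin made a difference of -0.37 with LPS (95% interval -0.80 to 0.06, adjusted p = 0.258) and of 0.02 without it (-0.41 to 0.45, adjusted p = 0.968), so that neither was resolved from no change.

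Rel encodes c-Rel, a subunit prominent in lymphoid and myeloid cells. Its probe was well above background on 2 of the 4 LPS+DMSO arrays and on none of the other 12. It read 4.58, 3.87, 3.55 and 3.22 in DMSO and 4.76, 5.03, 4.69 and 5.01 in LPS+DMSO. It read 4.23, 3.85, 2.25 and 3.57 in cordycepin and 4.03, 3.31, 2.96 and 3.19 in LPS+cordycepin. The LPS+DMSO arrays were the highest, but these values are near or under the limit of detection and no fold is given. The files map this probe, on mm9, over 15 bases, chr11:23641729-23641743 on the minus strand.

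A probe named C030046G05 lay 4656 bases downstream of the Rel probe on the same strand. It read 11.57, 10.78, 11.40 and 10.92 in DMSO, and 12.31, 13.01, 12.51 and 13.04 in LPS+DMSO. With cordycepin it read 10.87, 10.83, 11.06 and 11.02 without LPS and 11.88, 11.95, 12.03 and 12.13 with LPS. The arrays with LPS did not overlap those without, nor did LPS+cordycepin overlap LPS+DMSO. The probe rose by 1.55 with LPS in DMSO (SE 0.184, adjusted p = 2.56e-05) and by 1.05 in cordycepin (adjusted p = 0.00146), and it differed by -0.72 between cordycepin and DMSO with LPS (adjusted p = 0.0102). Which transcript this probe reads was not tested. No other probe within 20 kb of a member that passed the filter was called in LPS+DMSO against DMSO or in LPS+cordycepin against LPS+DMSO.

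**Figure D2:**
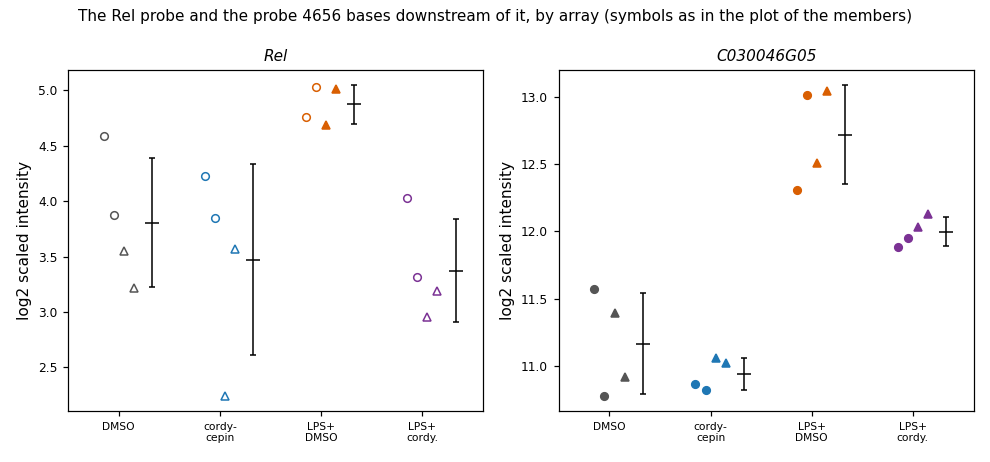
Log2 scaled intensity by array of the Rel probe (left) and of the C030046G05 probe (right), with symbols and bars as in the plot of the members. On the right the LPS+DMSO arrays lie between 12.31 and 13.04 and the LPS+cordycepin arrays between 11.88 and 12.13, all above the arrays without LPS.

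Among the cytoplasmic inhibitors, Nfkbia changed most with LPS. It read 13.70, 13.77, 13.57 and 13.48 on the DMSO arrays and 14.25, 14.38, 14.42 and 14.22 on the cordycepin arrays. With LPS it read 16.89, 17.04, 16.89 and 16.83 in DMSO and 16.83, 16.89, 16.89 and 16.84 in cordycepin. Cordycepin alone was thus above DMSO with no overlap, and with LPS the 2 treatments lay together. LPS raised Nfkbia by 3.28 in DMSO (SE 0.0838, adjusted p = 6.59e-13, 9.71-fold) and by 2.54 in cordycepin (adjusted p = 2.48e-11, 5.82-fold). Cordycepin without LPS raised it by 0.69 (SE 0.0838, adjusted p = 2.37e-05, 1.61-fold), with 0.58 on slide 1 and 0.80 on slide 2. With LPS the difference was -0.05 (95% interval -0.23 to 0.13, adjusted p = 0.779).

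Nfkbie, which encodes IkB epsilon, went the other way with cordycepin. It read 9.43, 9.51, 9.08 and 9.07 on the DMSO arrays and 8.58, 8.60, 8.75 and 8.52 on the cordycepin arrays. With LPS it read 10.999, 10.991, 10.96 and 11.13 in DMSO and 9.40, 9.72, 9.68 and 9.73 in cordycepin. Cordycepin arrays lay below the matching DMSO arrays both without and with LPS, with no overlap, and LPS+cordycepin overlapped DMSO. The difference was -0.66 without LPS (SE 0.113, adjusted p = 0.000552) and -1.39 with LPS (SE 0.113, adjusted p = 2.9e-07, 2.62-fold), and the latter was below 0 on all 4 days. LPS raised Nfkbie by 1.75 in DMSO (adjusted p = 2.98e-08) and by 1.02 in cordycepin (adjusted p = 1.87e-05).

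Nfkbib, which encodes IkB beta, averaged 12.44 ± 0.36 on the DMSO arrays and 12.34 ± 0.11 on the cordycepin arrays, and with LPS 13.42 ± 0.11 in DMSO-treated and 13.22 ± 0.28 in cordycepin-treated cells (SD, n = 4). LPS raised it by 0.98 in DMSO (adjusted p = 0.00053) and by 0.89 in cordycepin (adjusted p = 0.00218, and 0.0608 without replicate 4). Cordycepin gave a difference of -0.20 with LPS (95% interval -0.55 to 0.15, adjusted p = 0.49) and of -0.10 without it (-0.45 to 0.24, adjusted p = 0.748).

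The nuclear proteins were Nfkbiz, which encodes IkB zeta, a coactivator of secondary response genes such as Il6, and Bcl3, which binds p50 and p52 dimers. Nfkbiz had the largest change with LPS of the 9 tested members. It read 6.99, 8.001, 6.87 and 6.83 in DMSO and 12.42, 12.39, 12.38 and 12.34 in LPS+DMSO. With cordycepin it read 7.13, 6.98, 7.56 and 7.54 without LPS and 10.98, 11.49, 11.48 and 11.37 with LPS. The arrays with LPS were far above those without, and LPS+cordycepin lay below LPS+DMSO with no overlap. The rise was 5.21 in DMSO (SE 0.221, adjusted p = 2.2e-10, 37.0-fold) and 4.03 in cordycepin (adjusted p = 7.93e-09, 16.3-fold). With LPS present, Nfkbiz fell by 1.05 with cordycepin (SE 0.221, adjusted p = 0.00252). Without LPS the difference was 0.13 (adjusted p = 0.776), and without replicate 2, whose DMSO array read 8.001, it was 0.51 (adjusted p = 0.0408).

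Bcl3 read 9.87, 9.69, 9.94 and 10.02 in DMSO and 11.11, 11.18, 11.19 and 11.48 in LPS+DMSO. It read 10.09, 10.00, 10.28 and 10.06 in cordycepin and 10.79, 10.71, 11.02 and 11.19 in LPS+cordycepin. LPS raised it by 1.36 in DMSO (adjusted p = 9.46e-07) and by 0.82 in cordycepin (adjusted p = 0.000268). With LPS, LPS+cordycepin overlapped LPS+DMSO at 1 array, and the difference was -0.31 (SE 0.12, adjusted p = 0.0885). With the collection day or the slide as a block the adjusted p was 0.0278 and 0.0204. With the 75th percentile taken over all probes the difference was -0.44 (adjusted p = 0.00445), and without LPS+cordycepin replicate 4 the difference was -0.40 (adjusted p = 0.0291).

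Counted over the members, cordycepin in the presence of LPS lowered 4 of 9 (Nfkb2, Rela, Nfkbie and Nfkbiz), where 8.47% of all genes tested were called lower, and Nfkbie and Nfkbiz by at least 2-fold, where 1.52% were. It raised none, where 10.8% of all genes were called higher. None was raised either at an unadjusted p under 0.05 in limma or with the methods' t-test after adjustment. By these 2 rules 4467 and 2559 of the 15877 genes passed in either direction. The median of the 9 differences was -0.37 and that of all genes 0.03. Without LPS cordycepin raised Nfkbia alone, where 8.23% of all genes were called higher, and lowered Nfkb2 and Nfkbie, where 7.55% were called lower. Scaling to spiked-in control RNAs left 1 member called lower with LPS and none in either direction without it. The share of all genes called under that scaling was not computed. Under it the median of the 9 differences was -0.50 with LPS and 0.08 without, against -0.1 and 0.096 for all genes.

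**Figure D3:**
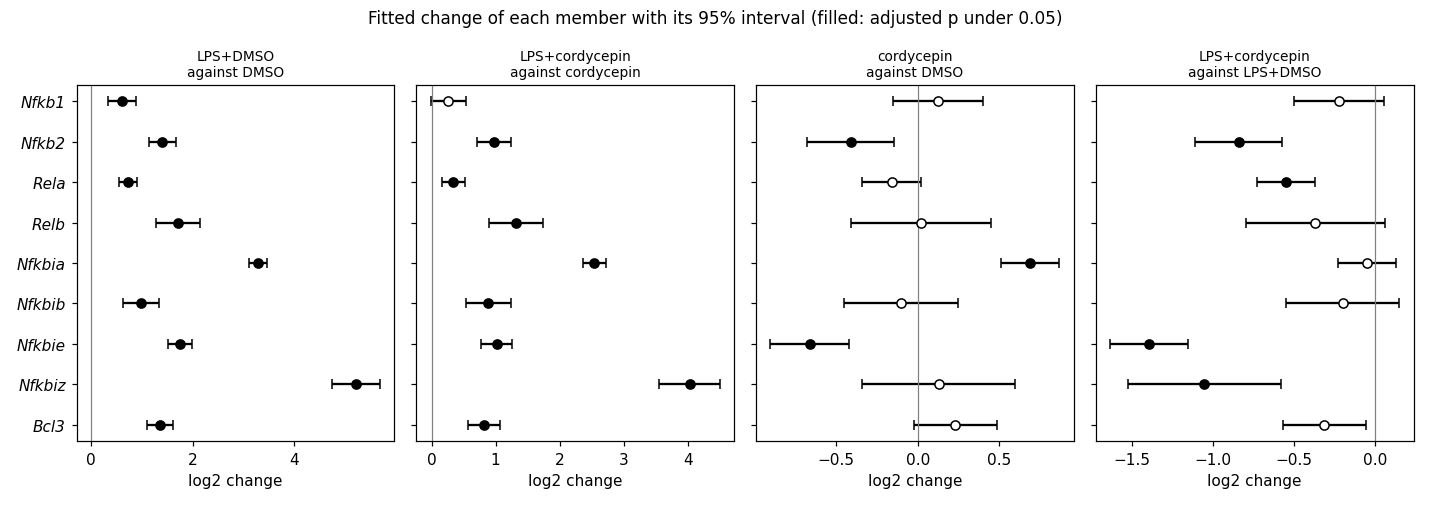
Fitted log2 change (horizontal axis, with a range of its own in each panel) of the 9 tested members in the 4 comparisons, with 95% intervals, filled where the adjusted p was under 0.05. All 9 are filled for LPS in DMSO, and in the right panel Nfkb2, Rela, Nfkbie and Nfkbiz are filled below 0.

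The interaction, which is the LPS change in cordycepin less the LPS change in DMSO, asks whether cordycepin altered the response to LPS itself. All 9 fitted values were below 0 for the brightest probes, with a median of -0.43 against 0.00477 for all genes. That of Nfkbib was -0.10, and it was above 0 in 4 of the alternatives. The Nfkbib probe A_55_P2051666 gave 0.28 (adjusted p = 0.929). Of the 9 members, 1 was called lower, where 0.271% of all genes were. This was Nfkbia, at -0.74 (SE 0.119, adjusted p = 0.011), and the difference was between -0.85 and -0.61 on the 4 days. Nfkbia was the member raised by cordycepin without LPS, and its levels with LPS were 16.91 ± 0.09 and 16.86 ± 0.03 (SD, n = 4). The adjusted p was 0.102, 0.245 and 0.0909 without replicates 1, 3 and 4.

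The fitted interaction was larger for Nfkbiz but less precise, at -1.18 (SE 0.312, adjusted p = 0.134). Its value by day was -1.58, 0.12, -1.58 and -1.68 for days 1 to 4, and the DMSO array of day 2 was the one that read 8.001. Without that array the interaction of Nfkbiz was -1.46 (adjusted p = 0.00439). Without the whole of replicate 2 it was -1.61 (adjusted p = 0.0133). The value of Nfkbie was -0.73 (adjusted p = 0.058), with -0.78 (adjusted p = 0.0488) without DMSO replicate 1 and -0.81 (adjusted p = 0.0209) without DMSO replicate 2. The values of Bcl3, Nfkb2 and Rela were -0.54, -0.43 and -0.39 (adjusted p = 0.243, 0.525 and 0.222). No member was called higher, where 0.283% of all genes were. At an unadjusted p under 0.05 in limma, 6 of the 9 were lower, where 3.09% of all genes were, and none was higher, where 4.57% were.

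**Figure D4:**
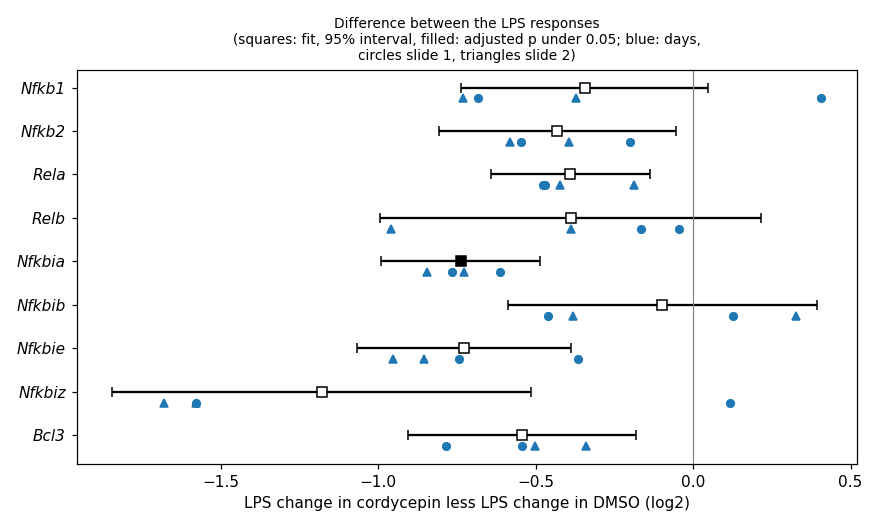
The LPS change in cordycepin less that in DMSO (horizontal axis, log2) for the 9 tested members, as the fitted value with its 95% interval (squares, filled where the adjusted p was under 0.05) and for each of the 4 days (blue, circles slide 1, triangles slide 2). Nfkbia alone is filled, and the point of Nfkbiz at 0.12 is day 2.

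Of the 15 probes, 14 passed the filter, and Nfkb1, Relb and Nfkbib had more than 1. The 2 probes of Nfkb1 rose by 0.55 and 0.61 with LPS in DMSO, and the 3 of Nfkbib by 0.97 to 1.04. For Relb, 2 probes rose by 1.71 and 1.74, and the remaining probe, A_55_P2168741, changed by 0.05 (SE 0.379, adjusted p = 0.965). That probe was designed on another transcript of Relb and was well above background on 11 of 16 arrays, and 1 of its DMSO values was missing. With LPS present, the Nfkbib probe A_55_P2051666 differed between cordycepin and DMSO by 0.17 and the other 2 by -0.20 and -0.16, and none of these was called.

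**Figure D5:**
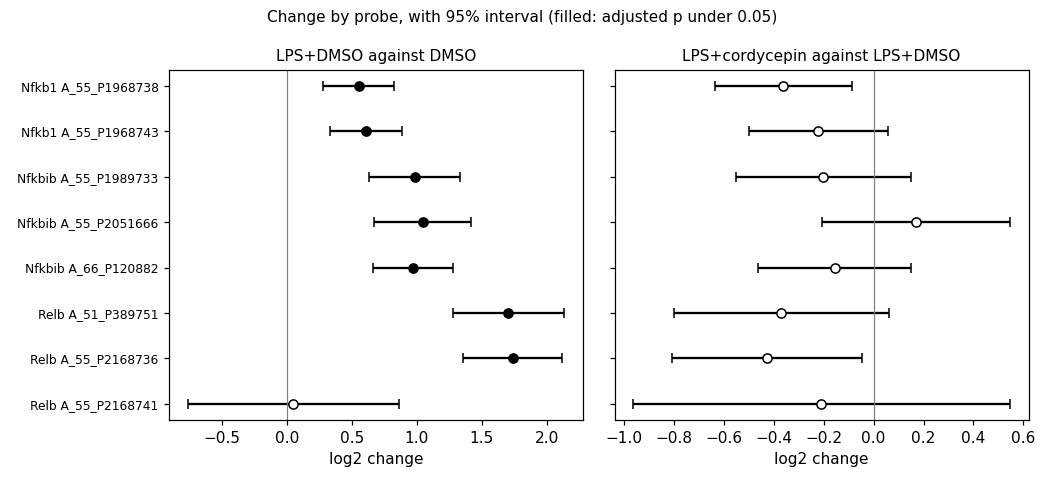
Fitted log2 change (horizontal axis) of each probe of Nfkb1, Nfkbib and Relb for LPS+DMSO against DMSO (left) and LPS+cordycepin against LPS+DMSO (right), with 95% intervals, filled where the adjusted p was under 0.05. On the left the Relb probe A_55_P2168741 is the one at 0.05, with an interval that spans 0, and on the right none is filled.

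The genes most alike in pattern were named for each tested member as the one with the highest Pearson r over the 16 arrays, among 11593 named genes with a value on all arrays. These values are a description, since the arrays fall into groups with and without LPS, which any gene that responds to LPS shares. Nfkbiz was most like Tnf (r = 0.993), Bcl3 most like Marcksl1 (0.991) and Nfkbia most like Kdm6b (0.99). Nfkb2 was most like Atf3 (0.986), Nfkbie most like Hilpda (0.986), Relb most like Ifnb1 (0.978) and Rela most like Rnf19b (0.977). Nfkbib was most like Gdf15 (0.959) and Nfkb1 most like Gm6377 (0.918). Among the members themselves r was highest for Nfkb2 with Nfkbie (0.975) and Nfkbiz with Nfkbia (0.973), and lowest for Nfkb1 with Nfkbib (0.707).

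The other genes of the pathway were taken from lists chosen with earlier results of these data known, so their counts are a description only. Shares of all genes tested are set beside them. With LPS in DMSO, 5.14% of all genes were called higher and 9.8% lower. For cordycepin with LPS, 10.8% were called higher and 8.47% lower. No test compared one list with another. Of 6 other IkB-related proteins, 2 rose and 1 fell with LPS in DMSO, and with LPS 4 were lower in cordycepin. Nfkbid, which encodes IkBNS, rose by 2.16 with LPS (adjusted p = 3.04e-05), and with LPS cordycepin made a difference of -0.49 (adjusted p = 0.256). Nkrf, which encodes a repressor of NF-kB targets, rose by 0.41 with LPS (adjusted p = 0.02) and fell by 0.40 with cordycepin in the presence of LPS (adjusted p = 0.0201). The genes of the Ras-like IkB-binding proteins were Nkiras2, which fell by 0.41 with LPS (adjusted p = 0.00115), and Nkiras1, which fell by 0.51 with cordycepin in the presence of LPS (adjusted p = 0.0205). Cordycepin without LPS lowered Nkrf and Nkiras1 as well, with changes of -0.36 (adjusted p = 0.0397) and -0.53 (adjusted p = 0.0199).

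Of 7 genes listed for the IkB kinase complex, NIK and other kinases, 1 rose with LPS in DMSO. This was Ikbke, the gene of an interferon-linked kinase, by 1.498 (adjusted p = 1.33e-06). With LPS, 3 of the 7 were lower in cordycepin, where 8.47% of all genes were. Ikbke fell by 1.07 (adjusted p = 2.49e-05), Map3k14, the gene of NIK, fell by 0.77 (adjusted p = 0.000111) and Ikbkg, the gene of NEMO, fell by 0.59 (adjusted p = 0.0348). Cordycepin without LPS lowered Map3k14 and Ikbkg as well, each with a change of -0.70 (adjusted p = 0.00036 and 0.0153). Ikbke changed by 0.09 without LPS (adjusted p = 0.731). Of 17 adaptors and TAK1 genes, 2 rose with LPS, where 5.14% of all genes did, and 1 fell, and with LPS 5 were lower in cordycepin. Traf1 rose by 5.15 with LPS, and with cordycepin it fell by 2.52 (adjusted p = 3.62e-07), and Traf2, which LPS changed by 0.02 (adjusted p = 0.944), fell by 1.61 with cordycepin (adjusted p = 2.93e-08). Ticam1, which encodes the adaptor TRIF, rose by 1.49 with LPS and fell by 1.13 with cordycepin (adjusted p = 2.01e-06). Tab1, which encodes a partner of TAK1, fell by 0.72 with LPS (adjusted p = 2.29e-06), and with LPS present it was lower in cordycepin (difference -0.48, adjusted p = 6.95e-05). Cordycepin without LPS also lowered Traf1 (-0.83, adjusted p = 0.0121) and Traf2 (-1.42, adjusted p = 1.56e-07). The same held for Ticam1 (-0.83, adjusted p = 6.56e-05) and Tab1 (-0.42, adjusted p = 0.000388).

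Of 15 genes of ubiquitin editing, 14 were well above background on all 16 arrays. Of these 14, 3 rose and 3 fell with LPS in DMSO, and with LPS 6 were lower in cordycepin and 1 was higher. Tnfaip3, which encodes the feedback inhibitor A20, rose by 5.24 with LPS, and with cordycepin it fell by 0.94 (adjusted p = 8.59e-05). The genes of A20-binding proteins were Tnip3, which rose by 1.72 with LPS and fell by 1.43 with cordycepin (adjusted p = 4.21e-05), and Tnip1, which rose by 0.86 with LPS and fell by 1.08 with cordycepin (adjusted p = 6.87e-06). The gene outside the 14 was Zc3h12a, which encodes an RNase that degrades cytokine mRNAs. It passed the filter through the groups with LPS, since only 2 of 4 DMSO and 3 of 4 cordycepin arrays were well above background. The level was 5.46 ± 1.05 in DMSO and 10.16 ± 0.16 in LPS+DMSO (SD, n = 4), and with LPS cordycepin made a difference of -1.03 (adjusted p = 0.0908).

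Of the 11 tested genes listed for the IkB ligase, the proteasome, ubiquitin-conjugating enzymes and related proteins, 2 were higher in cordycepin with LPS. Of all genes, 10.8% were. These were Btrc, which encodes the ligase subunit that recognises phosphorylated IkB, by 1.58 (adjusted p = 7.54e-08) and Ube2n, which encodes a ubiquitin-conjugating enzyme, by 1.90 (adjusted p = 6.1e-08). Without LPS cordycepin raised both as well, by 1.45 and 1.74.

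As a reference for the output of the pathway, 20 known targets were listed, of which 18 were tested and 15 were well above background on all 16 arrays. All 15 rose with LPS in DMSO, where 5.14% of all genes did, and with LPS 10 of the 15 were lower in cordycepin, where 8.47% were. Tnf read 11.08 ± 0.21 in DMSO and 17.79 ± 0.17 in LPS+DMSO (SD, n = 4), and with LPS present it fell by 1.07 with cordycepin (adjusted p = 5.29e-06). Without LPS cordycepin raised Tnf by 0.48 (adjusted p = 0.00917). Of the 18 tested targets it raised 2 without LPS (Tnf and Cxcl2), where 8.23% of all genes were called higher. It lowered 2, where 7.55% were called lower. Cxcl10 rose by 7.50 with LPS (adjusted p = 5.41e-09), and cordycepin made a difference of -0.95 (adjusted p = 0.152). Il1b was outside the 15, as it was not well above background on any DMSO array, and was at least 65.2-fold higher in LPS+DMSO, with 11.34 against a measured 3.61. With LPS present, Il1b fell by 1.73 with cordycepin (adjusted p = 0.00271). For Cxcl2, which was well above background on only 2 of 4 DMSO arrays, the difference between cordycepin and DMSO with LPS was -0.69 (adjusted p = 0.504).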

How the data were processed

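The members and lists were chosen with earlier results of these data known. Scanner files deposited by the authors hold a processed intensity for each spot from Agilent Feature Extraction 10.10.1.1 (named in the submitters' processing notes), after background subtraction and with no scaling across arrays. A deposited table of the authors holds log2 values that share their quartiles across arrays, by steps not given in the sources used here (the notes also name limma, with no role), and served as an alternative.

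Outlier spots were left out, spots of a probe averaged as log2 values (127 missing), and arrays scaled to a common 75th percentile, computed from the 18063 probes detected well above background on every array. A probe was kept if it was so detected on every array of at least 1 group (21597 probes), and a gene was read by its brightest probe. A limma fit (version 3.58.1, R 4.3.3) took the means of the 4 groups over all 16 arrays, with Benjamini-Hochberg adjustment across 15877 genes. The methods give no normalization or test for the arrays in particular, and their general statistics name a t-test for univariate comparisons, which was run as an alternative. With 4 arrays a group, their number limits the precision.

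All members were named. From each of 6 pathway lists up to 4 called genes were named, by the largest change in LPS+DMSO against DMSO or LPS+cordycepin against LPS+DMSO, as were the gene most alike to each member and neighbours within 20 kb. On simulated data with 200 changed genes among 15802 for LPS+DMSO against DMSO, 36.4%, 83.6% and 97.0% of changes of 0.5, 1 and 2 (log2) were recovered, with 12 false calls. These were 24 of 66, 56 of 67 and 65 of 67 genes. The simulated noise was independent between arrays, unlike the residuals described next, so these shares need not hold for the data.

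Replicate numbers mark the collection day per the labels, so the samples are paired. The mean correlation of residuals was 0.197 between arrays that share a number (-0.06 to 0.44), 0.176 between other arrays of one slide and -0.187 across slides. Alternatives were quantile, median, all-probe 75th percentile and spike-in scaling (6 probes), normexp background (offset 50), the authors' values, other filters, a gene's probes averaged, the replicate number or the slide as a block, a trend with robust estimation, only the groups compared, other thresholds, the methods' t-test, and leaving out each replicate number and each array. Motifs were searched with Python 3.11.15 and pandas 2.3.3, and plots drawn with matplotlib 3.10.9. Protein sequences were not used here.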

Additional observations from a re-analysis of the deposited data

Results flagged for a closer look

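Among 40 sets of 4 arrays (10 members in 4 groups), 3 held an array far from the other 3, and chance gives about 1 in 20. For Nfkb1 in LPS+cordycepin, replicate 2 read 10.27 and the others 9.78 to 9.83, a gap that was 0.887 of the whole range. For Nfkbie in LPS+cordycepin, replicate 1 read 9.40 and the others 9.68 to 9.73 (0.855 of the range). For Nfkbiz in DMSO, replicate 2 read 8.001 and the others 6.83 to 6.99 (0.866 of the range).

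The response of Nfkbia to LPS differed between cordycepin and DMSO by the test of the difference itself, at -0.74 on the log2 scale (adjusted p = 0.011 in limma), with the LPS change lower in cordycepin on all 4 days. The call was lost without replicates 1, 3 or 4 (adjusted p = 0.102, 0.245 and 0.0909). It was also lost with no filter on dim probes (adjusted p = 0.0997) and under spike-in scaling. Cordycepin without LPS raised Nfkbia by 0.69, and with LPS the difference was -0.05.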

How the results depend on the processing

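No change that was called turned its direction under the alternatives run, and the cause of each difference below was not tested. For most alternatives the share of all genes called was not computed, so the counts of members under them are a description only. Of the 9 tested members, 9 were called higher with LPS in DMSO and 8 in cordycepin. Scaling to spiked-in controls gave 5 and 2, and a minimum of 2-fold gave 4 in cordycepin. Without LPS, cordycepin raised 1 member, with 0 under spike-in scaling or a 2-fold minimum. It lowered 2, with 1 under quantile normalization, median scaling, no filter, only the groups compared, an adjusted p under 0.01 or the methods' t-test, and 0 under spike-in scaling or a 2-fold minimum. With LPS it lowered 4, with 1 under spike-in scaling and 2 at 2-fold, and with Bcl3 as an added member (5) under the 75th percentile over all probes, the slide block or the replicate block. The call of Rela for LPS in cordycepin was lost under spike-in scaling and a 2-fold minimum, and also with no filter, only the groups compared, an adjusted p under 0.01 or the methods' t-test. For the interaction, 1 member was lower, with 2 under quantile normalization, median scaling, the 75th percentile over all probes or the slide block, and 0 under spike-in scaling, no filter, a 2-fold minimum or an adjusted p under 0.01. Leaving out replicates or arrays in turn gave 8 to 9 members higher with LPS in DMSO and 6 to 8 in cordycepin, 1 to 2 higher and 1 to 2 lower for cordycepin without LPS, 4 to 5 lower with LPS, and 0 to 3 lower for the interaction. All other counts stayed at 0. With the replicate block, which pairs arrays of a day, the counts were 9, 8, 1, 2, 5 and 1 in the order above. The call of Bcl3 for cordycepin with LPS, whose adjusted p became 0.0278, was the only one it changed. Spike-in scaling moved the median change of all genes to -0.147 and -0.347 for LPS in DMSO and cordycepin, 0.096 and -0.1 for cordycepin without and with LPS, and -0.188 for the interaction. In the same order the medians of the tested members under it were 1.29, 0.67, 0.08, -0.50 and -0.62. Of 1602 values of single members under these alternatives, 1507 kept their direction and their side of the threshold, 62 lost the call, 14 gained one, and 19 that were not called changed sign. The 1507 include values that were not called in the main fit either. Blocks, the trend, other thresholds, the t-test and leaving out arrays of groups not compared do not alter the fitted change. Its direction could not turn under these, so the 1507 are no measure of robustness. Dim signal limits Rel, whose probe was well above background on 2 of 16 arrays.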
